A study of Homo sapiens with 6 samples.

Results

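Interferon-stimulated and double-stranded RNA (dsRNA) response genes were examined in RNA-seq of cells labelled LoVo, an established human colorectal cancer line, after depletion of the lncRNA *SNHG15*. The 38 genes were chosen by name for their role in this response, as sensors, transcription factors or effectors, with earlier results of these libraries known, and all 38 were found among the 63677 genes of the count table. *DDX58* was matched through its current name, *RIGI*. Of these genes, 29 held enough counts for testing, out of 12507 genes tested in all. The other 9, *DHX58*, *IRF9*, *OAS2*, *OASL*, *IFITM1*, *USP18*, *IFI44*, *IFI44L* and *XAF1*, are given by their counts.

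One group, *SNHG15* siRNA, received a combination of 2 siRNAs against *SNHG15*, and the other, scramble, received a negative control siRNA. Both were transfected at 25 nM for 48 h with a lipid reagent, and 3 libraries were made for each group from what the study describes as biological replicates. Cells without siRNA were not analysed here, so a response to siRNA itself that both groups share cannot be seen in this comparison. Loss of *SNHG15* and other actions of its siRNAs cannot be told apart either, because both siRNAs were given together in every treated library.

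Libraries held between 3446922 and 10256710 counts, and scramble replicate 3 was the shallowest. Levels are given as CPM (counts scaled to library size, with TMM factors). On this scale the detection floor of 3 counts in a library corresponded to 0.298 CPM in the deepest and 0.907 CPM in the shallowest library. *SNHG15*, the targeted gene, fell to 29.9% of its scramble level (log2 fold change -1.74 ± 0.12 SE, adjusted p = 2.615e-05 by edgeR's quasi-likelihood test, n = 3 in each group). Of 9 markers of colon epithelium, *KRT8*, *KRT18*, *CDH1* and *CDX2* were measured, but *EPCAM*, *KRT19*, *KRT20*, *CEACAM5* and *VIL1* had at most 1 count in any library, which goes against what the label leads one to look for, so the cells are called here only as labelled. *CDH1*, which encodes E-cadherin, was at 6.45, 8.55 and 7.56 CPM in scramble and 3.05, 5.18 and 5.05 CPM after depletion, without overlap (log2 fold change -0.76 ± 0.25 SE, adjusted p = 0.0945 by edgeR), and the part of this in the results below was not tested. The 7 leukocyte markers had at most 4 counts in any library, and the 8 markers of fibroblasts and endothelium that were found had at most 9. In bulk RNA, a change in the share of cells that carry a transcript and a change in its amount per cell cannot be told apart.

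Cells recognize dsRNA, a common product of viral replication, through the cytoplasmic helicase RIG-I (encoded by *DDX58*), the kinase PKR (*EIF2AK2*), the OAS enzymes and the endosomal receptor TLR3. RIG-I signals through the mitochondrial adaptor MAVS to the transcription factors IRF3 and IRF7, which switch on interferon genes. Secreted interferon then acts through its receptors and the JAK kinases on STAT2, which joins IRF9. Both are subunits of the complex ISGF3, which binds the interferon-stimulated response element (ISRE) upstream of antiviral genes such as the IFIT, OAS and IFITM families and *ISG15*. Epithelial cells are able to run this response without immune cells.

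The ISRE core was searched as GAAANNGAAA on both strands of RefSeq promoter windows, which run from 250 bases before to 50 after each annotated transcription start. The upstream 250 bases are shown for the 3 genes that passed the test for a higher level, *IFI6*, *ISG15* and *IFIT1*, and for a pair that hold the same core and did not pass it, *BST2* and *OAS3*, which were chosen after their values were seen. Sequences are from RefSeq on GRCh38.p14, read 5′ to 3′ on the strand of the gene, and capitals mark bases within an ISRE core. The *IFI6* sequence lies at chr1:27672193-27672442 on the minus strand, *ISG15* at chr1:1013247-1013496 on the plus strand, *IFIT1* at chr10:89392373-89392622 on the plus strand, *BST2* at chr19:17405631-17405880 on the minus strand and *OAS3* at chr12:112938224-112938473 on the plus strand.
IFI6: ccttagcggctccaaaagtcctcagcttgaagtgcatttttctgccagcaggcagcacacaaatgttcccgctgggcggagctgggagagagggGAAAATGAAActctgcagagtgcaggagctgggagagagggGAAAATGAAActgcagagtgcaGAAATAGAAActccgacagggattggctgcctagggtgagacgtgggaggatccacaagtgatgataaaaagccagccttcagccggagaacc
ISG15: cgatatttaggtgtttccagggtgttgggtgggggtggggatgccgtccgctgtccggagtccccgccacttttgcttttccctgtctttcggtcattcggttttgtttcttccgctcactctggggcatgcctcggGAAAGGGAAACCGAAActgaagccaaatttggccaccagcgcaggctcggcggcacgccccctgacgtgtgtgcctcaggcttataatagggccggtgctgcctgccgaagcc
IFIT1: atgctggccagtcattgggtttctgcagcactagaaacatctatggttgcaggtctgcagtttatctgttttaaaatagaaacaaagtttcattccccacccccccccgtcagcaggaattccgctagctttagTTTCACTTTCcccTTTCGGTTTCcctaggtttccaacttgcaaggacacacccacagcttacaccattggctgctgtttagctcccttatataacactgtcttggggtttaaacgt
BST2: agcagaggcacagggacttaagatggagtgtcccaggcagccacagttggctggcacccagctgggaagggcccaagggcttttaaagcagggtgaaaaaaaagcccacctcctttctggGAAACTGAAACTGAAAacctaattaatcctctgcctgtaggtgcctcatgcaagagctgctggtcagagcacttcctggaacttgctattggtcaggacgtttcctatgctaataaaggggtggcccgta
OAS3: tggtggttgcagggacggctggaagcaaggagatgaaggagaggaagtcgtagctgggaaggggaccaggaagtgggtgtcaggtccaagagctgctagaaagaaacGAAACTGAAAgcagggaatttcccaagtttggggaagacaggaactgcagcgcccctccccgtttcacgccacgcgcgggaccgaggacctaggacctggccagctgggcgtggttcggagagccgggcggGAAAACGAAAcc

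*IFI6* held 3 cores, with starts between -156 and -93 relative to the transcription start. *ISG15* held 2 overlapping cores from -113 and -107, which leave 16 capital bases, and *BST2* held 2 of the same overlapping arrangement from -130 and -124. *IFIT1* held 2 cores on the reverse strand, from -116 and -103, which therefore read as TTTC repeats, and *OAS3* held 2 well apart, from -143 and -12. Windows were found for 30 of the 38 genes, and 18 of these (60.0%) held a core, against 1195 of 27305 genes (4.38%) and 1255 of 35116 windows (3.57%) over the whole table. The 38 genes were chosen by name for their role in this response, so the larger share comes with that choice and is no result. Among the 18 genes with a core, 15 were tested, 9 had a log2 fold change above 0 and the median was 0.34. The test for a higher level was passed by 3, where 3.13% of all tested genes passed it. Of the 12 without this GAAANNGAAA core, 10 were tested, 0 passed by edgeR or DESeq2, 5 were above 0 and the median was 0.05. The search required 2 bases between the GAAA repeats and did not look for other spacings. Windows of *DDX58*, *OAS1*, *IFI35*, *TRIM25* and *XAF1*, counted here as without a core, hold such repeats with a shorter gap. The groups therefore separate genes by this exact pattern only. The 8 genes without a window, *DHX58*, *IRF3*, *IRF7*, *OAS2*, *OASL*, *IFIT2*, *IFITM2* and *USP18*, are in neither group. The difference between the groups was not tested. A core in the window is a description of the sequence, and the core was found both in genes that passed the test and in genes that did not.

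*IFI6*, *ISG15* and *IFIT1* rose after *SNHG15* depletion, by 1.92-, 1.80- and 2.06-fold. A gene was called at an adjusted p under 0.05 (edgeR, Benjamini-Hochberg over all genes tested). These 3 were 10.3% of the 29 tested, where 3.13% of all tested genes were called higher. Without scramble replicate 2, the 3 calls became 1 and the calls over all tested genes went from 392 to 73 higher, and *IFIT1* lost its call in 5 of the 6 fits with a library omitted. None was called lower by edgeR or DESeq2 (0 of 29, against 2.23% of all tested genes), although without a filter on low counts *TRIM25* was. At an unadjusted p under 0.05, 8 of the 29 (27.6%) were higher and 2 (6.9%) were lower, against 12.0% and 10.5% of all tested genes. All 3 siRNA libraries lay above all 3 scramble libraries in 9 genes (31.0%) and below them in 4 (13.8%), where the shares among all tested genes were 14.7% and 14.1%. The share called or not overlapping was therefore above the background on the higher side and below or near it on the lower side, and 16 of the 29 overlapped between groups. Because the genes were chosen with earlier results of these libraries known, these shares describe the list and do not test it. Log2 fold changes ran from -0.56 to 1.04 with a median of 0.18, against 0.00050 over all tested genes, and 18 were above 0.

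**Figure D1:**
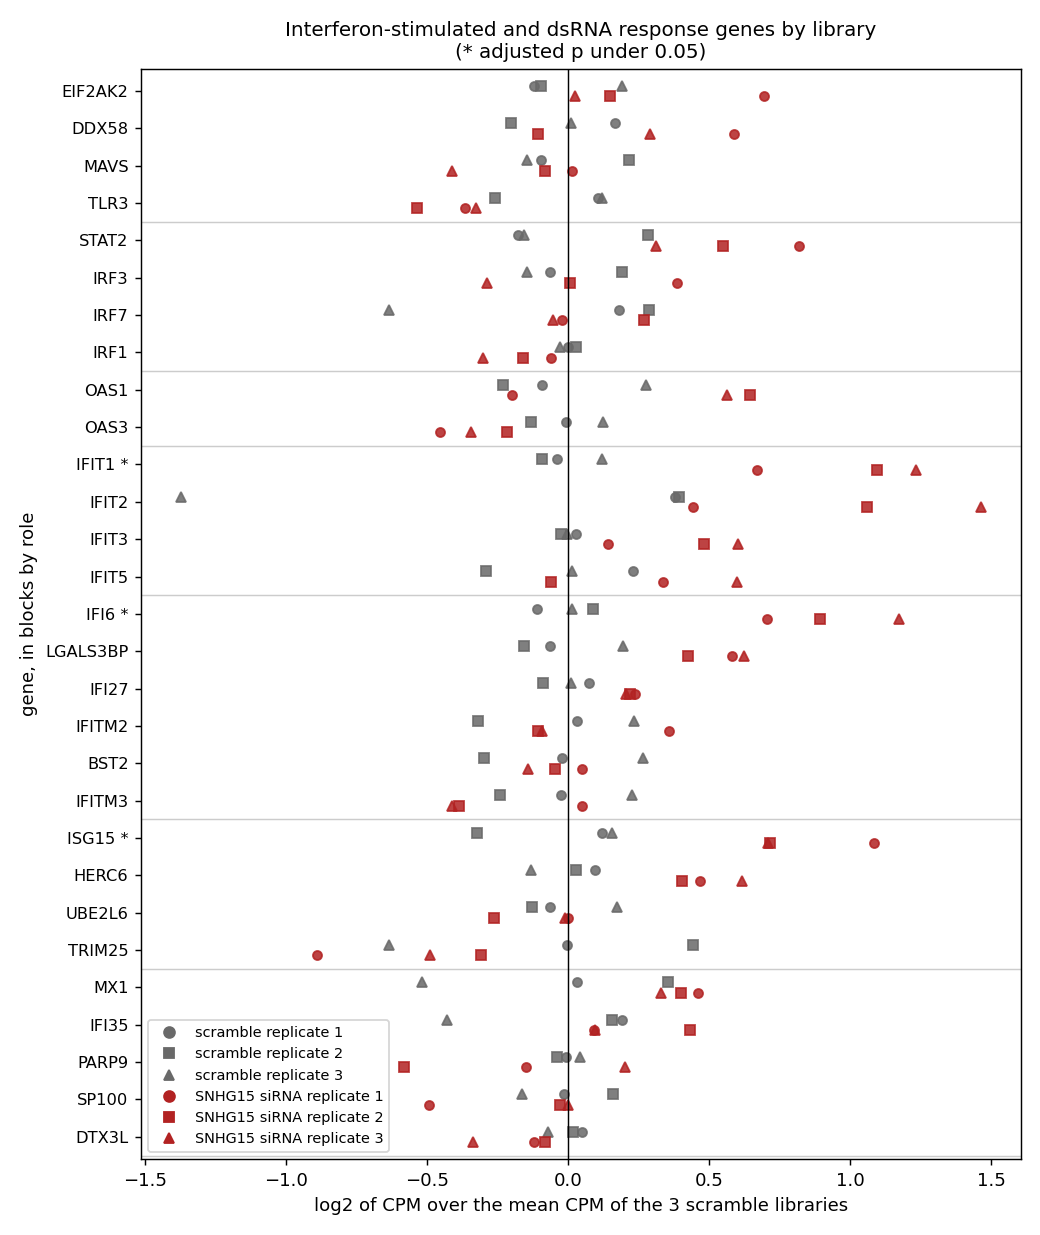
Each of the 29 tested genes is a row, in blocks by role, and each point is 1 library, as log2 of its CPM over the mean CPM of the 3 scramble libraries (gray scramble, red *SNHG15* siRNA, marker shape for the replicate, asterisk for an adjusted p under 0.05). Red points lie wholly to the right of gray ones in 9 rows, among them *IFI6*, *ISG15*, *IFIT1* and *HERC6*, wholly to the left in 4, and among them in the other 16.

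*IFI6* (ENSG00000126709), a small interferon-induced membrane protein that lowers cell death, lies at chr1:27992575-27998723 on the minus strand (GRCh37). Scramble replicates 1 to 3 held 206, 278 and 87 of its counts, and *SNHG15* siRNA replicates 1 to 3 held 306, 336 and 500. In CPM these were 24.1, 27.7 and 26.3 in scramble against 42.4, 48.3 and 58.7 after *SNHG15* siRNA, so that the lowest treated library stood well above the highest scramble one. The mean rose from 26.0 ± 1.77 to 49.8 ± 8.26 CPM (SD, n = 3 in each group), a 1.92-fold change (log2 fold change 0.94 ± 0.16 SE, adjusted p = 0.00611). It stayed past the threshold when any one library was left out, with log2 fold changes of 0.80 to 1.04.

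*ISG15* (ENSG00000187608) encodes the ubiquitin-like protein that is attached to other proteins during the interferon response, and lies at chr1:936518-949920 on the plus strand. Scramble libraries had 2441, 2112 and 968 counts of this gene, and treated libraries had 4017, 2999 and 3657. Its levels were 286, 210.1 and 292.7 CPM in scramble and 556.9, 431.4 and 429.5 CPM after depletion, with no overlap and the highest value in siRNA replicate 1. The mean rose from 262.9 ± 45.9 to 472.6 ± 73.0 CPM (SD, n = 3 in each group), a 1.80-fold change (log2 fold change 0.85 ± 0.16 SE, adjusted p = 0.00918). Scramble replicate 2 was the lowest of its group. Leaving it out gave a log2 fold change of 0.71 and an adjusted p of 0.0586, no longer past the threshold. In each of the other 5 fits that left out one library it passed.

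*IFIT1* (ENSG00000185745), which binds viral RNA that lacks host cap methylation and blocks its translation, lies at chr10:91152303-91166244 on the plus strand. It was a low transcript, with 37, 42 and 16 counts in scramble and 51, 66 and 89 in the siRNA libraries. In CPM the scramble libraries were at 4.34, 4.18 and 4.84 and the siRNA libraries at 7.07, 9.49 and 10.5, a narrow group below a wider one. The mean rose from 4.45 ± 0.345 to 9.01 ± 1.74 CPM (SD, n = 3 in each group), a 2.06-fold change (log2 fold change 1.04 ± 0.23 SE, adjusted p = 0.0202). Among 6 fits with 1 library omitted, only that without siRNA replicate 1 kept the call, with adjusted p of 0.00595. In the other 5, which left out siRNA replicate 2 or 3 or any one scramble library, the log2 fold change was 0.92 to 1.08 and the adjusted p reached 0.103.

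The other three IFIT genes, *IFIT2*, *IFIT3* and *IFIT5*, which lie beside *IFIT1* on chromosome 10 and encode related RNA-binding proteins, did not pass the adjusted threshold. *IFIT2* had 26, 31 and 3 counts in scramble and 23, 34 and 55 in the siRNA libraries, that is 3.05, 3.08 and 0.907 CPM against 3.19, 4.89 and 6.46 CPM. The groups stood next to each other without overlap, and scramble replicate 3, with 3 counts, was far below its group (log2 fold change 0.89 ± 0.35 SE, unadjusted p = 0.0261, adjusted p = 0.158 by edgeR). *IFIT3* had 95, 108 and 36 counts in scramble and 87, 106 and 141 after depletion, or 11.1, 10.7 and 10.9 CPM against 12.1, 15.2 and 16.6 CPM. Its scramble libraries were almost level and all siRNA libraries lay above them (log2 fold change 0.42 ± 0.18 SE, adjusted p = 0.178). *IFIT5* overlapped between groups, with means of 4.50 and 5.60 CPM (log2 fold change 0.34, adjusted p = 0.469). All 4 genes of the family had a log2 fold change above 0, with a median of 0.65, and 1 of them passed the test. *LIPA* overlaps *IFIT2* and *IFIT3* on the opposite strand, and whether counting used the strand is not given in the sources used here.

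**Figure D2:**
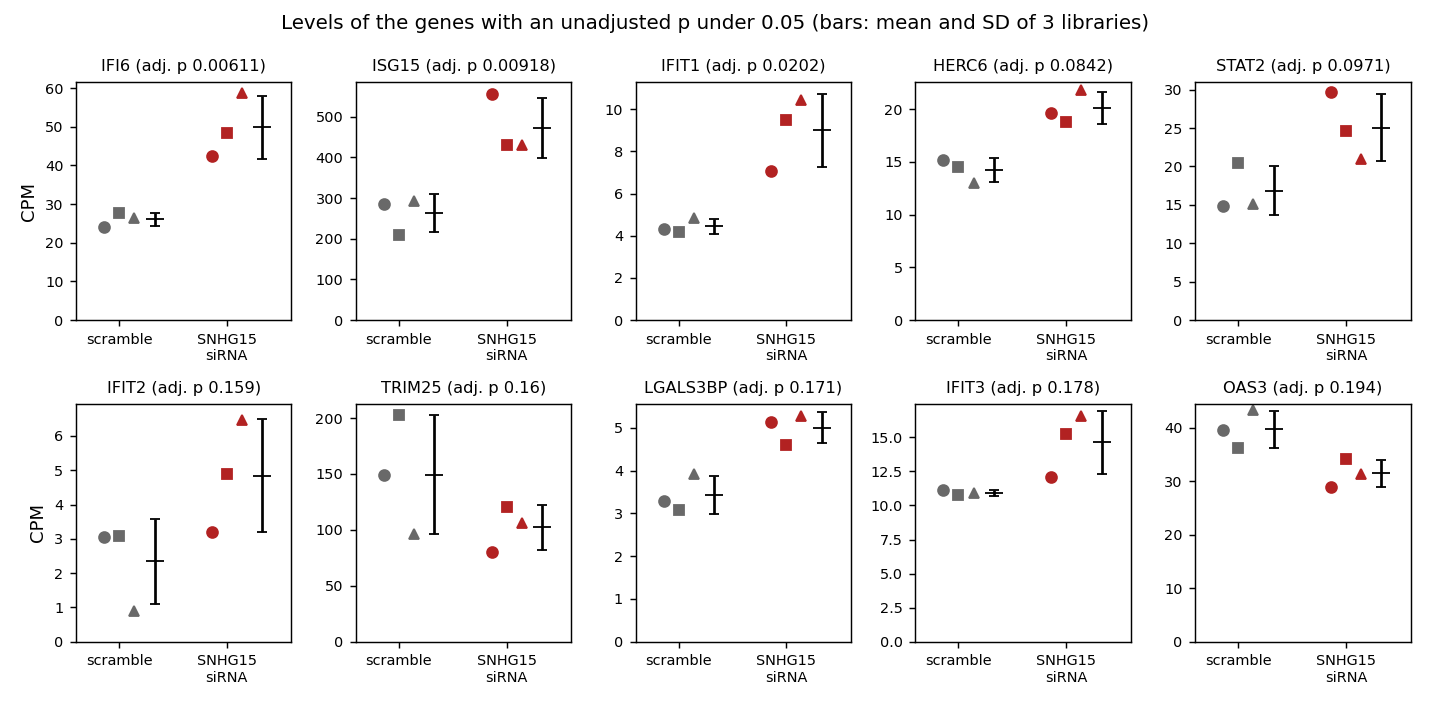
CPM (vertical axes, from 0) in each library for the 10 genes of the set with an unadjusted p under 0.05, ordered by p, with gray points for scramble, red points for *SNHG15* siRNA and black bars for the mean and SD of 3 libraries. *IFI6*, *ISG15* and *IFIT1* rose by 1.80- to 2.06-fold, *TRIM25* is the one gene whose groups overlap, and *IFIT2* has a single low scramble library at 0.907 CPM.

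Of the sensors and their adaptor, 4 were tested and 0 were called in either direction by edgeR or DESeq2, with 0 at an unadjusted p under 0.05. *EIF2AK2*, the kinase PKR that halts translation on binding dsRNA, was at 18.3, 18.6 and 22.7 CPM in scramble and 32.2, 22.0 and 20.2 CPM after depletion, where siRNA replicate 1 stood above 5 overlapping libraries (log2 fold change 0.34, adjusted p = 0.314). *DDX58* was at 5.39, 4.18 and 4.84 CPM against 7.21, 4.46 and 5.87 CPM (log2 fold change 0.29, adjusted p = 0.52). *MAVS* overlapped as well, with means of 40.5 and 36.5 CPM (log2 fold change -0.16, adjusted p = 0.594). *TLR3* was low, with 2.70, 2.09 and 2.72 CPM in scramble and 1.94, 1.73 and 1.997 CPM in the siRNA libraries, and did not overlap (log2 fold change -0.37 ± 0.30 SE, adjusted p = 0.509). *DHX58*, which encodes LGP2, a helicase that modulates RIG-I and MDA5 signaling, had 3 counts at most in any library. *GPATCH11* overlaps *EIF2AK2* on the opposite strand.

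Among the transcription factors, 4 were tested and 0 were called by edgeR or DESeq2, and *STAT2* was the one with an unadjusted p under 0.05. *STAT2*, a subunit of ISGF3, had 127, 206 and 50 counts in scramble and 214, 171 and 178 in the siRNA libraries. Its levels were 14.9, 20.5 and 15.1 CPM against 29.7, 24.6 and 20.9 CPM, with siRNA replicate 3 just above scramble replicate 2 (log2 fold change 0.55 ± 0.18 SE, adjusted p = 0.0971). *IRF3* and *IRF7*, the factors downstream of MAVS, overlapped, with log2 fold changes of 0.05 (adjusted p = 0.906) and 0.03 (adjusted p = 0.958). *IRF1*, an interferon-induced factor for many of the same promoters, was at 11.7, 11.9 and 11.5 CPM in scramble and 11.2, 10.5 and 9.51 CPM after depletion (log2 fold change -0.18, adjusted p = 0.585). *IRF9*, the DNA-contacting partner of STAT2, had 1, 1 and 0 counts in scramble and 4, 2 and 1 in the siRNA libraries. This low count is uncertain, because another protein-coding gene is annotated over it on the same strand, and reads that fit both may not have been counted. *BCL2L12* overlaps *IRF3* on the opposite strand.

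The OAS enzymes make 2′-5′-linked adenylates on binding dsRNA, which activate RNase L. Of the 4 genes, 2 were tested, and 0 were called by edgeR or DESeq2. *OAS3* had 337, 364 and 143 counts in scramble and 209, 237 and 266 in the siRNA libraries, or 39.5, 36.2 and 43.2 CPM against 29.0, 34.1 and 31.2 CPM. All siRNA libraries lay below all scramble ones, the opposite side from *IFI6*, *ISG15* and *IFIT1* (log2 fold change -0.33 ± 0.14 SE, unadjusted p = 0.0387, adjusted p = 0.194 by edgeR). *OAS1* overlapped at 1.64, 1.49 and 2.12 CPM against 1.53, 2.73 and 2.58 CPM (log2 fold change 0.45 ± 0.35 SE, adjusted p = 0.467). *OAS2* had 1, 6 and 2 counts in scramble and 7, 7 and 6 after depletion, which in CPM put all siRNA libraries (0.97, 1.01 and 0.705) above all scramble ones (0.117, 0.597 and 0.605). It was too low for the main test, and without the filter its adjusted p was 0.474. *OASL*, an enzymatically inactive relative, had 10, 1 and 3 counts against 5, 7 and 7, and overlapped.

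Of the membrane and membrane-linked effectors other than *IFI6*, *LGALS3BP* and *IFI27* did not overlap. *LGALS3BP*, a secreted glycoprotein that binds galectins, had 28, 31 and 13 counts in scramble and 37, 32 and 45 in the siRNA libraries, or 3.28, 3.08 and 3.93 CPM against 5.13, 4.60 and 5.29 CPM (log2 fold change 0.59 ± 0.24 SE, adjusted p = 0.171). *IFI27*, a small mitochondrial protein, was at 206.2, 183.9 and 196.9 CPM in scramble and 230.7, 227.7 and 225.4 CPM after depletion. Its siRNA libraries agreed closely and all stood above scramble, by a small step (log2 fold change 0.22 ± 0.11 SE, adjusted p = 0.271). *IFITM2* and *IFITM3*, which hinder the entry of enveloped viruses, and *BST2* (tetherin), which holds budding virions at the cell surface, were abundant and overlapped between groups. Their log2 fold changes were 0.07 (adjusted p = 0.837), -0.23 (adjusted p = 0.418) and -0.04 (adjusted p = 0.896). *IFITM1* had 3 counts at most in any library. The IFITM genes are close copies of each other, so reads that fit several of them may have been dropped or assigned to one.

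In the ISG15 conjugation group, the modifier rose as given above and the other tested genes, *HERC6*, *UBE2L6* and *TRIM25*, did not pass the main test. *HERC6* was placed here by its family, and whether its own product attaches ISG15 in these cells was not examined. *UBA7* and *HERC5*, further genes of this conjugation outside the set, were too low for that test. *UBA7* had 6, 4 and 2 counts in scramble and 2, 1 and 3 in the siRNA libraries, without overlap in CPM. Without the filter its adjusted p was 0.587 by edgeR. *HERC5* had 2 counts at most in any library. *HERC6*, of the HERC family of ubiquitin and ISG15 ligases, had 130, 146 and 43 counts in scramble and 142, 131 and 186 in the siRNA libraries. In CPM, 15.2, 14.5 and 13.0 in scramble stood below 19.7, 18.8 and 21.8 after depletion, with a gap larger than the spread in either group (log2 fold change 0.48 ± 0.15 SE, unadjusted p = 0.00767, adjusted p = 0.0842 by edgeR). *UBE2L6*, the conjugating enzyme for ISG15, overlapped, with means of 92.3 and 86.9 CPM (log2 fold change -0.08, adjusted p = 0.765). *TRIM25*, the ligase that ubiquitinates RIG-I and can attach ISG15, spread widely in scramble at 148.7, 202.7 and 96.2 CPM, and the siRNA libraries at 80.6, 120.4 and 106.3 CPM lay partly within that range (log2 fold change -0.56 ± 0.22 SE, adjusted p = 0.159). The value turned on single scramble libraries, with a log2 fold change of -0.27 (adjusted p = 0.563) without replicate 2 and -0.78 (adjusted p = 0.0601) without replicate 3. Without the filter on low counts it was called lower (log2 fold change -0.58, adjusted p = 0.00235). *C17orf67* overlaps *TRIM25* on the same strand and *DGKE* on the opposite one. *USP18*, which removes ISG15, had 0 counts in every scramble library and 0, 3 and 1 after depletion, and it has a close copy in the genome.

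Among the other effectors, 5 were tested and 0 were called by edgeR or DESeq2, with 0 at an unadjusted p under 0.05. *MX1*, a GTPase that traps viral nucleocapsids, was at 32.3, 40.4 and 22.1 CPM in scramble and 43.5, 41.7 and 39.7 CPM after depletion. The siRNA libraries were close to each other, and one scramble library reached their range (log2 fold change 0.36 ± 0.18 SE, adjusted p = 0.259). *IFI35*, *PARP9* and *SP100* overlapped, with log2 fold changes of 0.18, -0.13 and -0.16 and adjusted p of 0.585, 0.739 and 0.565. *DTX3L*, the ubiquitin ligase partner of PARP9, was at 18.8, 18.3 and 17.2 CPM against 16.6, 17.1 and 14.3 CPM (log2 fold change -0.18, adjusted p = 0.508). *PARP9* and *DTX3L* overlap each other on opposite strands. *IFI44* had between 1 and 7 counts in each library, *XAF1* had 3 at most, and *IFI44L* had 0 in all 6 libraries, which allows up to 0.298 CPM in the deepest of them.

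**Figure D3:**
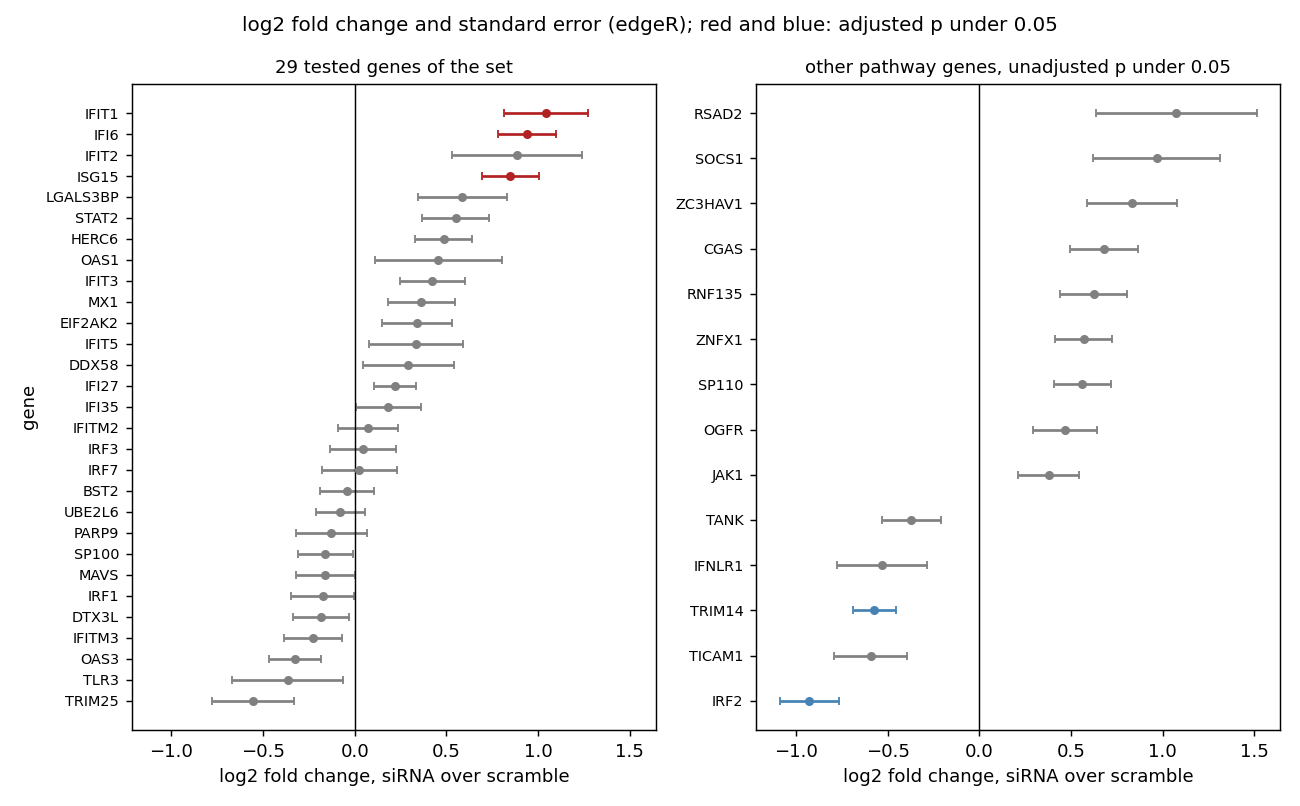
Log2 fold change of *SNHG15* siRNA over scramble with its standard error from edgeR (horizontal axes) for the 29 tested genes of the set, left, and for other pathway genes with an unadjusted p under 0.05, right. Red and blue mark an adjusted p under 0.05. On the left 3 genes are red and none is blue, and on the right *IRF2* and *TRIM14* are blue and none is red.

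Levels were compared between genes as CPM per kilobase of annotated exon. This length joins all annotated exons of a gene, 13021 bases for *OAS1* and 867 for *ISG15*, and may exceed the transcript present. The order of genes therefore depends in part on the annotation. In scramble, *IFITM2* (467.1 CPM per kilobase), *BST2* (372.2) and *ISG15* (303.3) were the highest of the 29 tested genes, and *OAS1* (0.134) was the lowest. After depletion *ISG15*, at 545.1 CPM per kilobase, stood first, before *IFITM2* at 490.1 and *BST2* at 360.9. Its distance from *IFITM2* was smaller than the SD between libraries, 84.2 for *ISG15* and 94.1 for *IFITM2* on the same scale, and its distance from *BST2* (SD 24.2) was larger. In scramble, where the SD was 88.0 for *IFITM2*, 72.6 for *BST2* and 53.0 for *ISG15*, neighbors in this order differed by about 1 SD. *IFI6* went from 27.8 to 53.2 CPM per kilobase, within its SD of 8.82 of *IFI27* at 55.1, and *IFIT1* from 0.965 to 1.95. In scramble the genes that rose ranked 3 (*ISG15*), 7 (*IFI6*) and 24 (*IFIT1*) of 29.

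The treated library with the highest value differed between genes. Among the 29 tested genes, 13 were highest in siRNA replicate 1, 6 in replicate 2 and 10 in replicate 3. *ISG15* and *STAT2* were highest in replicate 1, whereas *IFI6*, *IFIT1*, *IFIT2*, *IFIT3*, *LGALS3BP* and *HERC6* were highest in replicate 3. Of the 9 genes in which siRNA lay wholly above scramble, 3 were highest in replicate 1, 0 in replicate 2 and 6 in replicate 3. The median log2 ratio of the 29 genes to their scramble means was 0.14, 0.0068 and 0.10 in siRNA replicates 1 to 3.

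**Figure D4:**
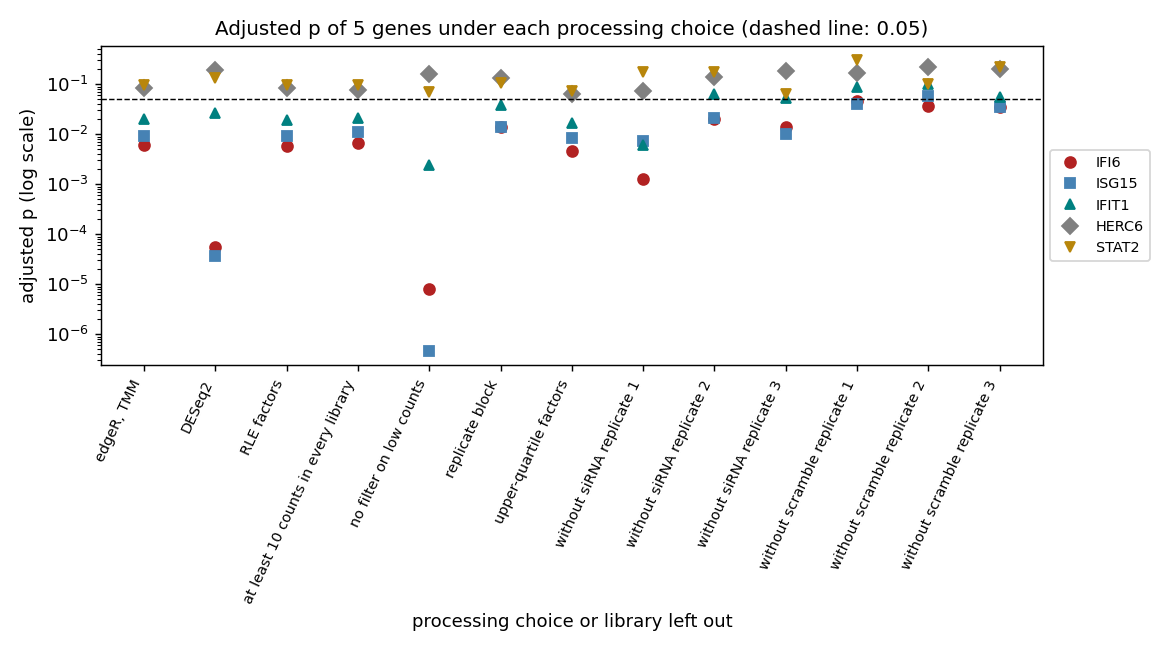
Adjusted p (vertical axis, log scale, dashed line at 0.05) of *IFI6*, *ISG15*, *IFIT1*, *HERC6* and *STAT2* under each processing choice and with each library left out (horizontal axis). *IFI6* stays under the line in every fit drawn, *ISG15* crosses it without scramble replicate 2 (0.0586), *IFIT1* lies above it in 5 fits that leave out a library, and *HERC6* and *STAT2* stay above it.

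The rest of the pathway was read from lists of 116 further genes, of which 64 were tested. Of these, 0 were called higher by edgeR and 2 by DESeq2, and 2 were called lower by edgeR, *IRF2* and *TRIM14*. Over all tested genes, edgeR called 3.13% higher and 2.23% lower. At an unadjusted p under 0.05, 9 of the 64 were higher (14.1%) and 5 lower (7.81%), near the 12.0% and 10.5% of all tested genes. The median log2 fold change of the 64 genes was 0.11. The 22 interferon genes were at or under 3 counts in every library, and 21 of them had none at all. The other was *IFNL1*, named after its counts were seen, with 0 counts in each scramble library and 0, 1 and 2 in the siRNA libraries, which is within the detection floor.

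Interferon receptors and the JAK-STAT relay held 12 tested genes, with 0 called by edgeR or DESeq2 and 2 higher (16.7%) and 1 lower (8.33%) at an unadjusted p under 0.05. *SOCS1*, which inhibits the JAK kinases, had 19, 23 and 3 counts in scramble and 19, 36 and 34 in the siRNA libraries. In CPM these were 2.23, 2.29 and 0.907 against 2.63, 5.18 and 3.99 (log2 fold change 0.97 ± 0.35 SE, adjusted p = 0.121 by edgeR). Scramble replicate 3, at the floor of 3 counts, was far below its group and lowered its mean. *JAK1*, the kinase shared by the interferon receptors, had means of 37.3 and 48.4 CPM and overlapped (log2 fold change 0.38, adjusted p = 0.203). *IFNLR1*, the receptor chain for interferon lambda, was at 5.51, 6.47 and 6.65 CPM in scramble and 3.19, 4.46 and 5.05 CPM after depletion, and did not overlap (log2 fold change -0.53 ± 0.24 SE, adjusted p = 0.218).

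In the RNA and DNA sensing cascade, 18 genes were tested and 0 were called by edgeR, with 3 higher (16.7%) and 2 lower (11.1%) at an unadjusted p under 0.05. *CGAS*, the cytosolic DNA sensor, was at 30.2, 20.7 and 23.3 CPM in scramble and 39.1, 32.5 and 47.5 CPM after depletion (log2 fold change 0.68 ± 0.18 SE, adjusted p = 0.0503), and DESeq2 called it at an adjusted p of 0.0273. *RNF135*, the ligase Riplet that activates RIG-I, had means of 8.05 and 12.4 CPM (log2 fold change 0.62 ± 0.18 SE, adjusted p = 0.0638). *ZC3HAV1*, which binds CpG-rich viral RNA, had means of 9.65 and 16.1 CPM (log2 fold change 0.83 ± 0.24 SE, adjusted p = 0.0653). These 3 genes were named for their small p, and none overlapped between groups. Of all 18 tested genes of the list, 4 lay wholly higher, 1 wholly lower and 13 overlapped. Among all tested genes, 14.7% lay wholly higher and 14.1% wholly lower.

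Among 56 further interferon-stimulated genes, 34 were tested. At an unadjusted p under 0.05 by edgeR, 4 were higher (11.8%) and 2 lower (5.88%), against 12.0% and 10.5% of all tested genes. Of the 34, 4 lay wholly higher, 4 wholly lower and 26 overlapped, where 14.7% and 14.1% of all tested genes lay wholly higher and lower. *ZNFX1*, *SP110* and *OGFR* below were named for their small p. *IRF2*, which competes with IRF1 for its sites and restrains interferon-stimulated promoters, fell from 17.9, 17.5 and 19.4 CPM to 9.57, 9.93 and 9.16 CPM (log2 fold change -0.93 ± 0.16 SE, adjusted p = 0.00741). The 2 groups were tight and far apart, and the call was kept when any one library was left out. *TRIM14*, an adaptor that works with MAVS at mitochondria, fell from 118.5, 128.3 and 130.6 CPM to 81.4, 84.6 and 87.6 CPM (log2 fold change -0.57 ± 0.12 SE, adjusted p = 0.015). Its adjusted p rose to 0.0594, 0.0519, 0.078 and 0.0609 without siRNA replicate 2 and scramble replicates 1, 2 and 3, respectively. *ZNFX1*, a helicase that senses dsRNA at mitochondria, had means of 50.0 and 74.9 CPM (log2 fold change 0.57 ± 0.16 SE, adjusted p = 0.0529), and DESeq2 called it at an adjusted p of 0.0308. *SP110*, a nuclear body protein, was at 16.4 and 23.8 CPM (log2 fold change 0.56 ± 0.15 SE, adjusted p = 0.0537), and *OGFR*, an opioid growth factor receptor, at 30.6 and 42.0 CPM (log2 fold change 0.47 ± 0.17 SE, adjusted p = 0.134).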

How the data were processed

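RNA from cells labelled LoVo was taken 48 h after transfection with *SNHG15* siRNAs or a negative control siRNA, 3 libraries for each group. The authors made stranded mRNA libraries and deposited unnormalized counts of reads per gene. The study's methods name bowtie2 and hg19, whereas the submitters' processing notes list STAR, featureCounts and hg19. Versions, annotation, and the use of strand and of multiply placed reads are not given in the sources used here. Groups and replicate numbers came from the sample labels, and 0 columns lacked a sample.

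Tests used edgeR 4.0.16 under R 4.3.3, after filterByExpr with a minimum count of 10 and total of 15, with TMM factors and the quasi-likelihood test without a block, adjusted by Benjamini-Hochberg over 12507 genes. Each standard error is the log2 fold change over the square root of F. The step was tested on simulated data. Alternatives were DESeq2 1.42.0, RLE and upper-quartile factors, no filter, 10 counts in every library, a replicate block, and leaving out each library.

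Names, positions and exon lengths came from GENCODE release 44 mapped to GRCh37, which had no entry for 8012 identifiers. The 38 genes, the role lists and the lists of other pathway genes were chosen with earlier results of these data known. All 38 genes are named, with counts and CPM in every library for each gene past the adjusted threshold, or past an unadjusted p of 0.05 with non-overlapping groups. Of other pathway genes, those past the adjusted threshold and up to 3 more of each list by p are named. *IFNL1*, *UBA7* and *HERC5* were added to these after their counts were seen. The lists of other pathway genes first held 1 more gene, removed once its values were known but not because of them, which is not reported here. P-values measure the spread between these 6 libraries. Counting error covers the drawing of reads only. siRNA sequences and their matches to transcripts were not analysed here.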

Additional observations from a re-analysis of the deposited data

How the results depend on the processing

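With all libraries kept, values of the 29 tested genes, *IRF2* and *TRIM14* were recomputed under the alternatives. Of these values, 181 held their direction and their side of the threshold, 1 crossed the threshold and 1 changed sign. *IFI6*, *ISG15* and *IFIT1* were called in all 6 of these fits. Exceptions came without the filter on low counts, where *TRIM25* passed the threshold at -0.58, so that 1 gene of the set was called lower, and *IRF7* turned to -0.00028. There, 685 genes were called higher and 627 lower over the whole table, against 392 and 279. Upper-quartile factors moved the median of all genes by 0.04 and the balance of calls to 515 higher and 230 lower. Of the other pathway genes, which except for *IRF2* and *TRIM14* are outside the count of 181, 2 were called higher by DESeq2, 1 with RLE factors, 4 without the filter and 4 with upper-quartile factors. *CGAS* passed the threshold in 4 of the 6 alternatives and *ZNFX1* in 3.

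Same-numbered libraries correlated at -0.08, 0.18 and -0.06 in their deviations from group means, and differently numbered ones at -0.20 to 0.17. With 3 libraries in each group these correlations are tied to each other. They cannot show whether the replicate numbers pair the libraries. A replicate block gave 336 higher and 207 lower calls over all genes, and the same 3 in the set.

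With one library left out, all genes called ranged from 73 to 425 higher and 66 to 387 lower, genes of the set called higher from 1 (without scramble replicate 2) to 3, and other pathway genes from 0 to 2 higher and 1 to 3 lower. The median log2 fold change of the set ranged from 0.11 to 0.26 (without scramble replicate 1). Genes near 0 changed sign across these fits, *IRF3* from -0.16 to 0.20, *IRF7* from -0.17 to 0.19, *IFITM2* from -0.10 to 0.20, *BST2* from -0.17 to 0.11, *UBE2L6* from -0.13 to 0.0054 and *PARP9* from -0.34 to 0.049. *IFIT1* fell short in 5 of these fits (log2 fold change 0.92 to 1.08), *ISG15* in 1 and *TRIM14* in 4. Such fits test fewer libraries, and why single libraries weigh more than others was not tested. Genes with 3 or fewer counts per library are below what this depth can compare.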
